A study of Mus musculus with 12 samples.

Results

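The IFIT and OAS antiviral families were described here through 10 genes of the spleen NK cell count table, of 50643 genes in all. They were chosen by symbol: 4 IFIT genes (Ifit1, Ifit2, Ifit3 and Ifit3b) and 6 OAS genes (Oas1a, Oas1g, Oas2, Oas3, Oasl1 and Oasl2). Polyadenylated RNA was sequenced from natural killer (NK) cells of C57BL/6 mouse spleens. NK cells are cytotoxic lymphocytes of innate immunity, and here they were obtained by negative selection, that is by removing other cells. The 12 libraries formed 4 groups of 3: wild-type unchallenged, wild-type challenged with Listeria, Mirc11-/- unchallenged and Mirc11-/- challenged with Listeria. Listeria is an intracellular bacterium, and the Mirc11 locus makes the microRNAs miR-23a, miR-27a and miR-24. Not given in the sources used here are the challenge dose, its route and time, the sex and age of the mice, and how the Mirc11 allele was made. Nor is it stated whether each library came from a separate animal, so p-values measure only the spread between these libraries. Replicates are numbered as in the library codes: 2, 3 and 4 without challenge and 1, 2 and 3 after it.

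Both families are interferon-stimulated genes. Type I interferon, and to a lesser degree interferon gamma, switch them on through JAK kinases, STAT proteins and interferon regulatory factors. IFIT proteins are tetratricopeptide-repeat proteins that bind RNA with foreign end structures and keep it from being translated. OAS enzymes sense double-stranded RNA and respond by making short oligoadenylates, messengers that lead to the breakdown of RNA in the cell. Of the OAS-like genes, Oasl1 encodes a protein without synthetase activity that is known to restrain translation of Irf7, and Oasl2 encodes an active enzyme with ubiquitin-like domains.

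The genes lie in tight clusters (GRCm38, GENCODE vM21 annotation, whole gene spans). On chromosome 19, Ifit2 (chr19:34550694-34576419), Ifit3 (chr19:34583531-34588731), Ifit3b (chr19:34607970-34613401) and Ifit1 (chr19:34640871-34650009) follow each other on the forward strand. On chromosome 5, Oas2 (chr5:120730333-120749853), Oas3 (chr5:120753098-120777661), Oas1g (chr5:120876142-120887613) and Oas1a (chr5:120896256-120907521) lie on the reverse strand. Oasl2 (chr5:114896936-114912234) and Oasl1 (chr5:114923240-114937915) lie in a separate pair on the forward strand of chromosome 5. All 10 are annotated as protein-coding.

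Most of the promoters searched, but not all, carry the letters of the interferon response element, the sequence that STAT and IRF complexes bind. In RefSeq promoter sequences (GRCm38.p6, 250 bases before to 50 after the start, 9 of the 10 genes matched, Oas2 not among them), the core (GAAA, any 2 bases, GAAA) was searched on both strands with overlapping matches counted. It was found in 6 of the 9 (Ifit1, Ifit3, Ifit3b, Oas1a, Oas1g and Oas3), against 3.44% of 32851 promoters of the same length. These 9 genes had 10 promoter sequences, and 6 of the 10 held the core. At least 2 matches were found in 5 of the 9, against 0.225% of all promoters. The windows are shown because they hold these matches and because they show how alike the gene copies are. Capitals mark the matches, and TTTC letters are matches on the opposite strand. Windows are given in the direction of transcription, Ifit1 from chr19:34640770-34640828, Ifit3 from chr19:34583358-34583431 and Ifit3b from chr19:34607754-34607827 (all forward strand), and Oas1a from chr5:120907526-120907560, Oas1g from chr5:120887614-120887646 and Oas3 from chr5:120777710-120777749 (all reverse strand).
Ifit1: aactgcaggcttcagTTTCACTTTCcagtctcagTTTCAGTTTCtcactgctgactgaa
Ifit3: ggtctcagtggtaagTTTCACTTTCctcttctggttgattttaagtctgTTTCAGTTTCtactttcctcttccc
Ifit3b: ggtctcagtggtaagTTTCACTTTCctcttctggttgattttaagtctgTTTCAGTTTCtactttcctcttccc
Oas1a: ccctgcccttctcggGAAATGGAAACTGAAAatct
Oas1g: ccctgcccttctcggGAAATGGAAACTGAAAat
Oas3: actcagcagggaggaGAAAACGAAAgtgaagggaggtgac
The Ifit3 and Ifit3b windows did not differ at any of 74 bases, and those of Oas1a and Oas1g differed at 0 of the 33 bases they share. In Oas1a and Oas1g the pair of matches overlapped. The gamma-activated site TTCNNNGAA, searched the same way, was found in Ifit2 and Oas1a and in 8.30% of all promoters. Neither set of letters was found in these windows of Oasl1 and Oasl2.

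**Figure D1:**
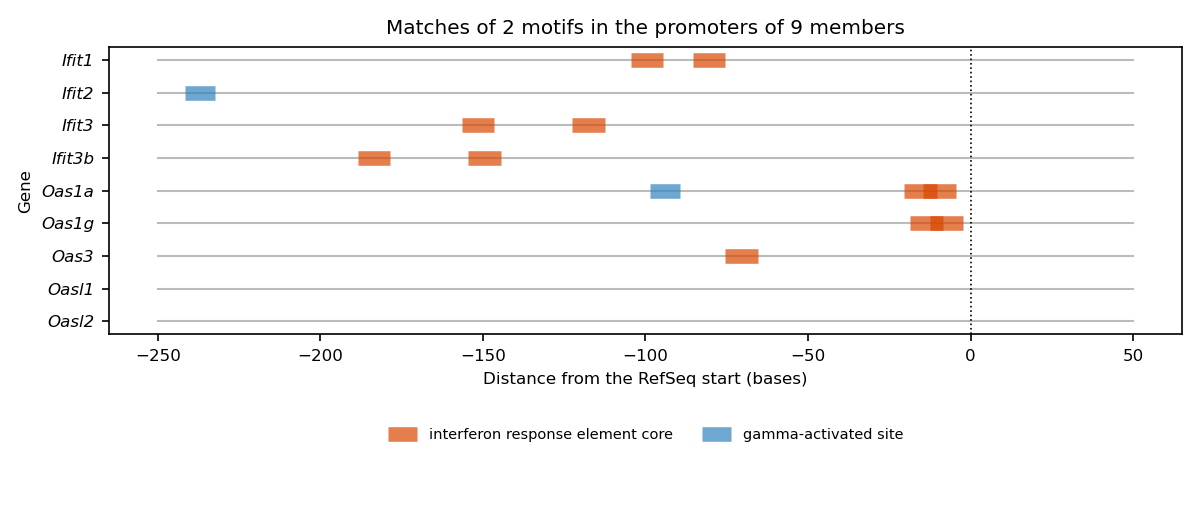
Positions of matches to the interferon response element core and the gamma-activated site in the promoters of 9 genes, in bases from the RefSeq start (dotted line). Each grey line is 1 gene over the 300 bases searched, with the matches of all its promoter sequences drawn together. The response element matches of Oas1a and Oas1g lie within 20 bases before the start and overlap, while those of Ifit1, Ifit3, Ifit3b and Oas3 lie farther upstream.

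The microRNAs of the Mirc11 locus are printed for their seeds, bases 2 to 8 in capitals. These seeds define the sites that could be searched in the 10 transcripts.
miR-23a-3p: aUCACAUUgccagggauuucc
miR-27a-3p: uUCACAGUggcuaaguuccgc
miR-24-3p: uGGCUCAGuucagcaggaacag
In the longest annotated 3′ UTR of each gene, the miR-23a-3p site AATGTGA was found in 0 of the 10 genes, against 17.1% of 13539 tested genes with a 3′ UTR. The miR-27a-3p site ACTGTGA was found in Ifit1, Ifit3 and Ifit3b, against 19.0% of those genes. The miR-24-3p site CTGAGCC was found in Oas2, against 21.0%. These are matches of letters only, and the share of genes with a site was not adjusted for UTR length.

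Libraries held 17624530 to 23665679 counts, and 16694 genes, all 10 IFIT and OAS genes among them, had enough counts to be tested. The RNA of Mir23a, Mir27a and Mir24-2 was listed at 0 counts in all 12 libraries, so it does not check the genotype. The adjoining transcript Gm26532, named after its values were seen, stood at 2.34 to 4.88 CPM (counts scaled to a common library total, per 1000000) in the 6 wild-type libraries and at 0.113 to 0.984 CPM in 5 Mirc11-/- libraries. In challenged Mirc11-/- replicate 3 it stood at 2.70 CPM, within the wild-type range. Sex-linked transcripts moved with genotype: Ddx3y was at 0 to 0.133 CPM in 5 wild-type libraries and at 34.7 CPM in unchallenged wild-type replicate 4, and at 44.1 to 135 CPM in the 6 Mirc11-/- libraries. Xist stood at 0.362 to 1.08 CPM in unchallenged Mirc11-/- and at 526 to 2025 CPM in the other 9 libraries, so that unchallenged wild-type replicate 4 and the challenged Mirc11-/- libraries held both. Sex and genotype cannot be told apart here. Within Mirc11-/-, Xist went from 0.362 to 1.08 CPM without challenge to 526 to 1027 CPM after it. Sex therefore also cannot be told apart from the Mirc11-/- challenge response, or from the difference between the responses of the genotypes. Results for the 10 genes without both challenged Mirc11-/- replicate 3 and unchallenged wild-type replicate 4 are given beside the counts.

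Challenge raised every IFIT and OAS gene in both genotypes, and raised each one less in Mirc11-/-. All 10 rose in wild-type, where 32.4% of all tested genes rose, and all 10 rose in Mirc11-/-, where 15.6% of tested genes rose (edgeR quasi-likelihood test, Benjamini-Hochberg adjusted p below 0.05 over all tested genes, as throughout). The median log2 change of the 10 was 4.22 in wild-type and 2.89 in Mirc11-/-, against -0.0086 and -0.0051 over all tested genes. Summed over the 10 genes, the level went from 179 ± 7.6 to 2213 ± 70 CPM in wild-type and from 165 ± 3.5 to 840 ± 118 CPM in Mirc11-/- (mean ± SD, n = 3 in each group). After challenge no library of a Mirc11-/- group reached a wild-type one for any of the 10 genes, a separation that 22.3% of all tested genes showed in the same direction. Without challenge, 1 gene of the 10 was called between the genotypes. The same counts, 10, 10 and 1, were found without the pair of libraries named above.

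**Figure D2:**
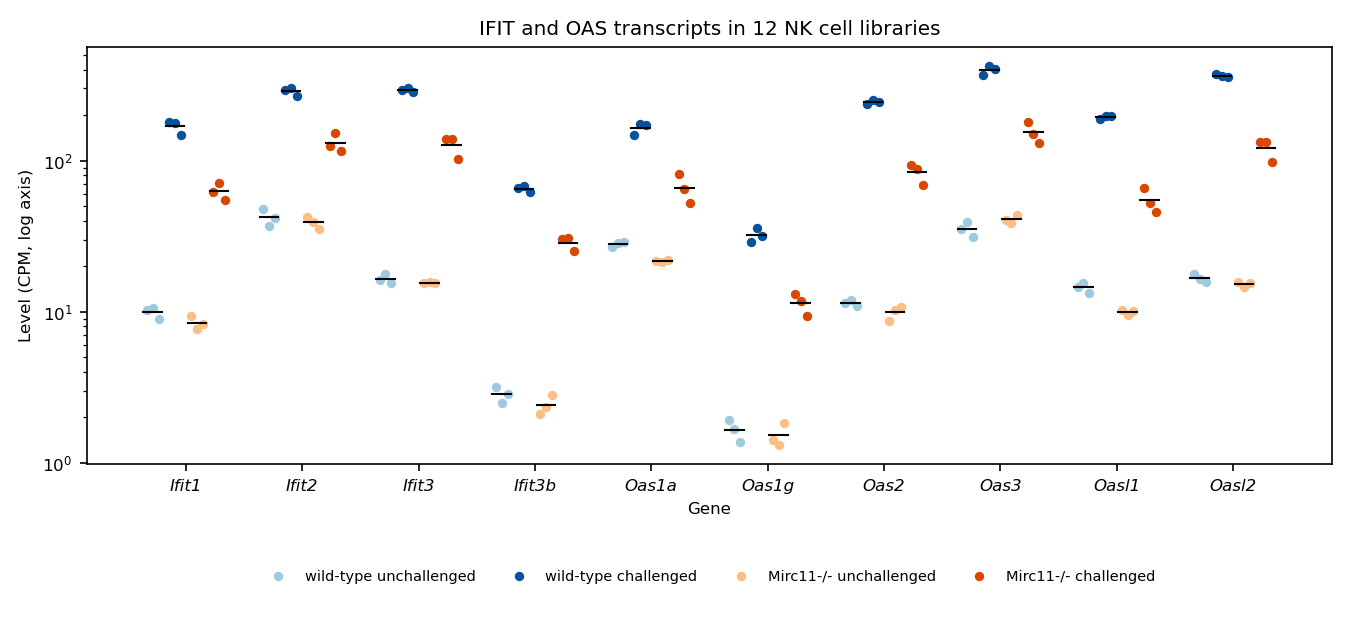
Level of each IFIT and OAS gene in every library (points, CPM on a log axis) with the group mean (line), in order of replicate from left to right. For all 10 genes the challenged wild-type libraries lie above the challenged Mirc11-/- libraries, and these lie above both unchallenged groups.

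Ifit1, the founding member of its family, binds RNA whose cap lacks methylation. In unchallenged wild-type it stood at 10.3, 10.6 and 8.94 CPM, and after challenge at 179.7, 177 and 149 CPM (replicates in order). In Mirc11-/- it stood at 9.36, 7.69 and 8.32 CPM without challenge and at 62.0, 71.1 and 54.6 CPM after it. The unchallenged groups overlapped, while each challenged Mirc11-/- library was below each challenged wild-type one. The rise was 18.2-fold in wild-type (log2 4.19 ± 0.11 SE, adjusted p = 4.25e-13, edgeR) and 7.37-fold in Mirc11-/- (log2 2.88 ± 0.11, adjusted p = 1.32e-10). The Mirc11-/- response was smaller, with a difference of -1.305 ± 0.16 on the log2 scale (adjusted p = 1.29e-05).

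Ifit2, encodes a partner of the other IFIT proteins in RNA-binding complexes. Its levels in CPM were 48.2, 37.1 and 41.7 in unchallenged wild-type and 292, 303 and 267 after challenge. In Mirc11-/- they were 42.7, 39.4 and 35.3 without challenge and 125.5, 151.5 and 116 after it. Replicate 2 was the highest challenged library in both genotypes, and the challenged groups did not overlap. Ifit2 rose 7.29-fold in wild-type (log2 2.87 ± 0.11, adjusted p = 9.76e-12) and 3.33-fold in Mirc11-/- (log2 1.73 ± 0.11, adjusted p = 1.69e-08), a difference of -1.13 ± 0.15 (adjusted p = 3.2e-05).

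Ifit3 encodes another protein of the IFIT family, and Ifit3b is its close copy. Ifit3 stood at 16.2, 17.7 and 15.6 CPM in unchallenged wild-type and at 293, 301 and 285 CPM after challenge. Its Mirc11-/- libraries gave 15.4, 15.8 and 15.4 CPM without challenge and 139, 139.8 and 102 CPM after it. The 3 challenged wild-type libraries lay close together, and challenged Mirc11-/- replicate 3 stood below the other two of its group. The rise was 19.1-fold in wild-type (log2 4.25 ± 0.11, adjusted p = 3.25e-13) and 8.11-fold in Mirc11-/- (log2 3.02 ± 0.10, adjusted p = 3.83e-11), with a difference of -1.23 ± 0.14 (adjusted p = 8.15e-06). Ifit3b stood at 3.17, 2.51 and 2.85 CPM in unchallenged wild-type and 65.4, 68.0 and 62.1 CPM after challenge. In Mirc11-/- it went from 2.10, 2.35 and 2.82 CPM to 30.2, 30.9 and 25.1 CPM. Of the 10 genes it had the largest log2 rise in each genotype, 24.7-fold in wild-type (log2 4.62 ± 0.12, adjusted p = 3.25e-13) and 11.7-fold in Mirc11-/- (log2 3.55 ± 0.12, adjusted p = 3.83e-11), ranking 169 and 115 among all tested genes by size of rise. The difference between its responses was -1.08 ± 0.18 (adjusted p = 0.000293).

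Ifit3 and Ifit3b share much of their sequence, so that reads can be split between them. Of the 50-base stretches of Ifit3, 51.2% also occur in Ifit3b, and 44.5% of those of Ifit3b occur in Ifit3 (GENCODE vM21 transcripts). The count of Ifit3b over that of Ifit3 was 0.173 ± 0.028 in unchallenged and 0.223 ± 0.0043 in challenged wild-type, and 0.156 ± 0.024 and 0.228 ± 0.015 in Mirc11-/- (mean ± SD, n = 3). The 2 genotypes overlapped in this ratio before and after challenge. With the counts of each pair of copies summed before the fit (Ifit3 with Ifit3b, and Oas1a with Oas1g), all 8 remaining units rose in each genotype, all 8 rose less in Mirc11-/-, and 1 differed without challenge.

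Among the OAS synthetases, Oas3, a large enzyme that carries several synthetase units, stood at 35.0, 39.5 and 31.5 CPM in unchallenged wild-type and at 371, 423 and 405 CPM after challenge. In Mirc11-/- it was at 40.2, 38.7 and 43.9 CPM without challenge and at 179, 150.5 and 132 CPM after it. The unchallenged groups overlapped, and the challenged ones were far apart. Oas3 rose 12.2-fold in wild-type (log2 3.60 ± 0.11, adjusted p = 1.6e-12) and 3.73-fold in Mirc11-/- (log2 1.90 ± 0.11, adjusted p = 6.71e-09). The difference between its responses, -1.70 ± 0.15 (adjusted p = 6.63e-07), was the farthest from 0 of the 10.

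Oas2, the synthetase of intermediate size, was at 11.4, 12.02 and 10.9 CPM in unchallenged wild-type and at 235, 252 and 245 CPM after challenge. Its Mirc11-/- levels were 8.74, 10.3 and 10.8 CPM without challenge and 93.4, 88.2 and 69.3 CPM after it. Every challenged wild-type library was well above each challenged Mirc11-/- one. The rise was 23.0-fold in wild-type (log2 4.52 ± 0.11, adjusted p = 3.25e-13) and 8.32-fold in Mirc11-/- (log2 3.06 ± 0.11, adjusted p = 4.29e-11), a difference of -1.47 ± 0.15 (adjusted p = 2.66e-06).

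Oas1a and Oas1g encode small synthetases that arose by gene duplication in rodents. Oas1a stood at 26.9, 28.5 and 29.0 CPM in unchallenged wild-type and at 149, 174 and 173 CPM after challenge. In Mirc11-/- it was at 21.7, 21.2 and 22.1 CPM without challenge, below every wild-type library, and at 81.0, 65.1 and 52.2 CPM after it. Its rise was the smallest of the 10 in both genotypes, 6.30-fold (log2 2.66 ± 0.13, adjusted p = 2.43e-10) and 3.03-fold (log2 1.60 ± 0.13, adjusted p = 4.93e-07). The difference between them was -1.06 ± 0.17 (adjusted p = 0.000321). Oas1g stood at 1.91, 1.69 and 1.37 CPM in unchallenged wild-type and 28.9, 35.6 and 31.6 CPM after challenge. Mirc11-/- libraries held 1.42, 1.31 and 1.83 CPM without challenge and 13.0, 11.9 and 9.39 CPM after it. Oas1g rose 20.8-fold in wild-type (log2 4.38 ± 0.17, adjusted p = 7.88e-12) and 7.45-fold in Mirc11-/- (log2 2.90 ± 0.17, adjusted p = 1.08e-08), a difference of -1.48 ± 0.26 (adjusted p = 0.000375).

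The near-copies Oas1a and Oas1g, whose promoter windows above are the same over the shared bases, rose by different amounts. The count of Oas1g over that of Oas1a went from 0.0592 ± 0.012 to 0.194 ± 0.011 in wild-type and from 0.0700 ± 0.011 to 0.174 ± 0.012 in Mirc11-/- (mean ± SD, n = 3). Challenged and unchallenged libraries did not overlap in this ratio in either genotype. Of the 50-base stretches of Oas1a, 57.6% also occur in Oas1g, and the split of shared reads makes each gene's own value uncertain.

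Oasl1, the OAS-like gene without synthetase activity, was the one gene of the 10 called lower in Mirc11-/- without challenge. It stood at 14.7, 15.6 and 13.4 CPM in unchallenged wild-type and at 10.2, 9.45 and 10.1 CPM in unchallenged Mirc11-/-. After challenge it was at 189.9, 198 and 196 CPM in wild-type and at 65.6, 52.1 and 45.8 CPM in Mirc11-/-. The genotypes did not overlap in either condition. Oasl1 rose 14.4-fold in wild-type (log2 3.84 ± 0.11, adjusted p = 7.54e-13) and 5.47-fold in Mirc11-/- (log2 2.45 ± 0.11, adjusted p = 8.33e-10), a difference of -1.39 ± 0.16 (adjusted p = 7.19e-06). Its exons overlap the antisense gene Gm13822 over 38 bases, 1.46% of its exon length, and the sources used here do not give whether counting used strand.

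Oasl2, the active OAS-like enzyme, was at 17.9, 16.6 and 15.8 CPM in unchallenged wild-type and at 373, 364 and 355 CPM after challenge. In Mirc11-/- it stood at 15.8, 14.6 and 15.5 CPM without challenge and at 133, 133 and 97.8 CPM after it. After challenge every Mirc11-/- library was far below every wild-type library. The rise was 23.4-fold in wild-type (log2 4.55 ± 0.11, adjusted p = 3.25e-13) and 7.87-fold in Mirc11-/- (log2 2.98 ± 0.10, adjusted p = 4.09e-11), a difference of -1.57 ± 0.14 (adjusted p = 8.14e-07). The count of Oasl2 over that of Oasl1 was 1.15 ± 0.081 and 1.87 ± 0.081 in unchallenged and challenged wild-type, and 1.54 ± 0.0062 and 2.24 ± 0.28 in Mirc11-/-. In this ratio Mirc11-/- lay above wild-type without overlap in both conditions.

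**Figure D3:**
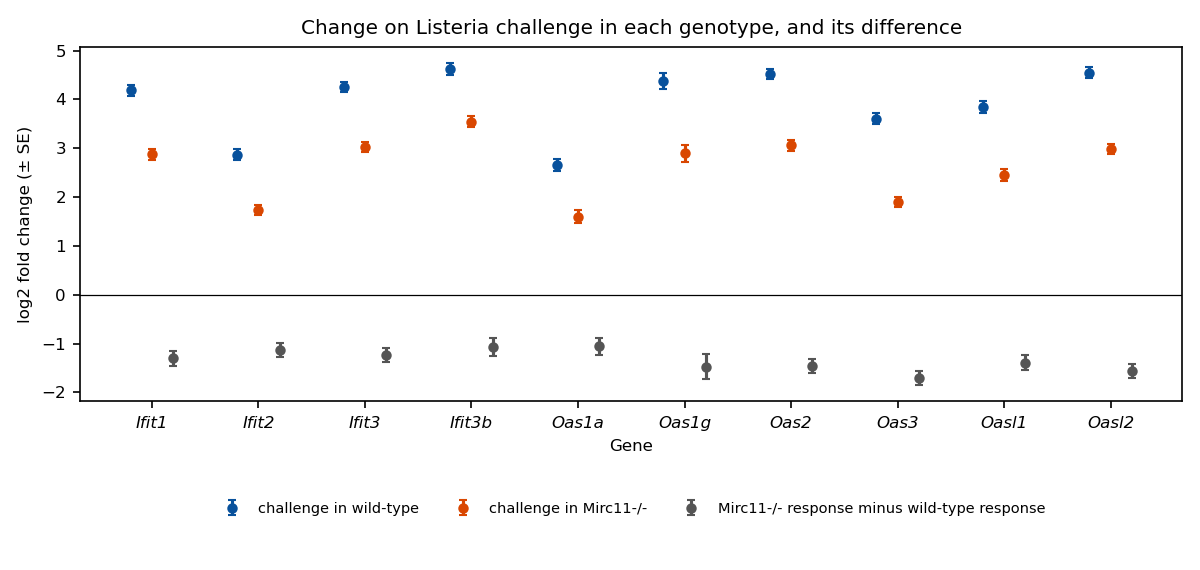
Log2 fold change on challenge of each gene in wild-type (blue) and in Mirc11-/- (orange), with the Mirc11-/- response minus the wild-type response (grey); bars are standard errors from the edgeR fit on 12 libraries. All 10 differences lie below 0, from -1.70 for Oas3 to -1.06 for Oas1a.

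The difference between the responses was tested directly, as an interaction term. All 10 genes had a smaller response in Mirc11-/-, where 18.5% of all tested genes had a lower one, and their median difference was -1.35 against 0.0039 over all tested genes. Between the challenged groups all 10 were lower in Mirc11-/-, where 25.9% of tested genes were lower, with a median of -1.50 against -0.0024. Oasl1 was left at 26.2% of its wild-type level (log2 -1.93 ± 0.10, adjusted p = 1.25e-09), the lowest of the 10, and Oasl2 at 31.2% (log2 -1.68 ± 0.09, adjusted p = 2.01e-09). Oas2, Oas1g, Ifit1, Oas3 and Oas1a stood at 32.1%, 33.4%, 34.8%, 36.0% and 37.5% of wild-type. The other 3 IFIT genes kept the most, Ifit3 40.6%, Ifit3b 41.2% and Ifit2 42.7% (log2 -1.23 ± 0.10, adjusted p = 1.48e-07). The median log2 difference was -1.29 over the 4 IFIT genes and -1.61 over the 6 OAS genes, and whether the families differ was not tested. These comparisons share the challenged Mirc11-/- libraries and are not independent of each other.

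The challenged Mirc11-/- libraries also varied together across the 10 genes. Replicate 3 was the lowest of its group for 10 of 10 genes, at 704 CPM summed against 921 and 894 CPM in replicates 1 and 2. Replicate 1 was the highest for 5 of 6 OAS genes and replicate 2 for 4 of 4 IFIT genes. Replicate 3 is the library with the wild-type-like level of Gm26532, and it had the lowest summed level of 8 neutrophil markers in its group, 750.3 CPM against 1098 and 1152 CPM. It was also lowest in its group for summed monocyte and macrophage markers (1158 CPM) and other interferon-induced effectors (4582 CPM). The same held for plasmacytoid and conventional dendritic cell markers (241 and 479 CPM). Its NK and T cell sums, 6043 and 232 CPM, were the highest of the group, and its B cell and erythroid sums lay in between. Without replicate 3, all 10 genes still rose in Mirc11-/- and all 10 still rose less than in wild-type.

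Without challenge the genotypes were close. Of the 10 genes, 1 was lower in Mirc11-/- (Oasl1, log2 -0.54 ± 0.12, adjusted p = 0.00778), where 5.07% of tested genes were lower and 11.7% were called in either direction. Oas1a was lower in all 3 libraries but missed the threshold (log2 -0.36 ± 0.13, adjusted p = 0.1003). It passed in a fit on the unchallenged groups alone (log2 -0.34, adjusted p = 0.00427), where 2 of the 10 were called, and when challenged Mirc11-/- replicate 1 or 3 was left out (adjusted p = 0.00879 and 0.0239). Oas3 had the only positive value, 0.23 ± 0.11 (adjusted p = 0.228), and the other 7 lay between -0.22 for Ifit1 and -0.07 for Ifit3, with adjusted p from 0.33 to 0.862. For 3 of the 10 genes each Mirc11-/- library was below each wild-type one, and for 7 the groups overlapped. Of all tested genes, 18.2% were lower in Mirc11-/- without overlap. A miss of the threshold does not show that levels were equal.

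Per kilobase of exon, the order of the genes changed with challenge. Oas1a had the highest unchallenged level, 14.9 ± 0.60 CPM per kilobase in wild-type and 11.5 ± 0.23 in Mirc11-/-, followed by Ifit2 and Ifit3, whose levels overlapped in wild-type (10.8 ± 1.4 and 9.46 ± 0.62) and in Mirc11-/- (9.96 ± 0.95 and 8.91 ± 0.12). Unchallenged, these 3 genes stood apart from the other 7. After challenge Ifit3 led, at 168 ± 4.5 in wild-type and 72.8 ± 12 in Mirc11-/-, with Oas1a next in wild-type at 87.6 ± 7.5. In challenged Mirc11-/- the levels of Oas1a and Ifit2, 35.1 ± 7.7 and 33.4 ± 4.7, overlapped behind it. In challenged wild-type the levels of Ifit1, Oasl2, Oas3 and Oas2 (63.4 ± 6.4, 57.1 ± 1.4, 56.5 ± 3.7 and 54.9 ± 1.9) each overlapped the next in order. Ifit3b and Oas1g were last in all 4 groups, with Oas1g at 0.708 ± 0.12 in unchallenged and 13.7 ± 1.4 in challenged wild-type and at 0.650 ± 0.12 and 4.88 ± 0.79 in Mirc11-/-.

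The remaining genes of the 2 families behaved less uniformly. Of 8 listed, 4 had enough counts to be tested, and Oas1d, Oas1e, Oas1f and Oas1h did not. Ifit1bl1 rose on challenge in both genotypes (log2 2.34 ± 0.11 and 1.99 ± 0.11, adjusted p = 8.24e-11 and 6.4e-09), and the difference between its responses missed the threshold (-0.35 ± 0.16, adjusted p = 0.0915). It was lower in Mirc11-/- without challenge (-0.55 ± 0.12, adjusted p = 0.00458) and after it (-0.91 ± 0.10, adjusted p = 3.98e-06), at 66.5 ± 11 against 116.5 ± 11 CPM. Ifit1bl2 also rose in both (1.90 ± 0.25 and 1.75 ± 0.26, adjusted p = 7.39e-06 and 0.00012), with a difference of -0.14 ± 0.36 (adjusted p = 0.79). Oas1b, annotated as a polymorphic pseudogene in this strain's genome, rose in wild-type (0.69 ± 0.10, adjusted p = 1.73e-05). Oas1c fell by 0.44 ± 0.11 in wild-type (adjusted p = 0.00193), from 17.8 ± 0.97 to 12.2 ± 1.2 CPM, although its promoter holds 2 matches of the interferon response element core. The exons of Oas1c overlap Gm43069 over 227 bases. Neither Oas1b nor Oas1c was called on challenge in Mirc11-/-. The difference between the responses was -0.45 for Oas1b (adjusted p = 0.0192) and, in the other direction, 0.48 for Oas1c (adjusted p = 0.0204). Oas1c was also higher in challenged Mirc11-/- than in challenged wild-type (0.29, adjusted p = 0.0359). These last calls of both genes were lost in several alternative fits.

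Genes for proteins around the OAS product changed little beside the synthetases. Abce1, which is known to recycle ribosomes, rose in both genotypes (0.68 ± 0.09 and 0.58 ± 0.09, adjusted p = 7.97e-06 and 0.000181). Pde12, a phosphodiesterase gene whose product degrades oligoadenylates, changed by 0.26 ± 0.08 and 0.24 ± 0.08 (adjusted p = 0.0112 and 0.0426), and Cnp by 0.45 ± 0.08 and 0.24 ± 0.08 (adjusted p = 0.000229 and 0.0456). The calls of Pde12 in both genotypes and of Cnp in Mirc11-/- were lost under upper-quartile scaling and in several fits that left out a library. Akap7 was not called in either genotype.

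Upstream of the families, most of the listed transcription factor genes rose in wild-type. Stat2, a subunit of the ISGF3 complex that binds the interferon response element, rose by 2.25 ± 0.06 in wild-type and 1.01 ± 0.06 in Mirc11-/- (log2, adjusted p = 4.85e-13 and 1.26e-08). Irf9, another subunit, rose by 0.71 ± 0.06 and 0.31 ± 0.06 (adjusted p = 1.1e-07 and 0.00201). The kinase genes Jak1 and Tyk2 fell in both. Irf7, the regulator that sustains interferon production, went from 107.9 ± 5.0 to 686 ± 30 CPM in wild-type and from 113 ± 6.2 to 303 ± 52 CPM in Mirc11-/-, with a difference between the responses of -1.36 ± 0.14 (adjusted p = 2.68e-06). Of 6 interferon regulatory factors, 5 rose and Irf3 fell in wild-type (log2 -0.22 ± 0.08, adjusted p = 0.0249, not called in several alternative fits). In Mirc11-/- 3 rose and 3 were not called, and 4 had a smaller response in Mirc11-/-. The shares over all tested genes were 32.4% rising in wild-type, 15.6% rising in Mirc11-/- and 18.5% with a lower response. Irf2 was not called in wild-type under upper-quartile scaling.

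Ligand transcripts gave little signal apart from Ifng. The 20 other interferon ligand genes summed to 93 counts over the 12 libraries, 5 of them were at 0, and none could be tested. Those with the most counts were Ifnb1, Ifnz and Ifna2. In unchallenged and challenged wild-type, then unchallenged and challenged Mirc11-/-, Ifnb1 had 0, 17, 0 and 8 counts. Ifna2 had 0, 12, 0 and 2, while Ifnz went the other way on challenge, with 10, 3, 3 and 1. Ifng, which encodes the interferon that NK cells secrete, went from 95.4 ± 15 to 275 ± 7.8 CPM in wild-type and from 72.9 ± 2.0 to 113 ± 23 CPM in Mirc11-/- (difference between the responses -1.01 ± 0.18, adjusted p = 0.000903). Of 6 receptor genes, Ifngr2 and Ifnlr1 rose in both genotypes, 3 fell in wild-type and 4 in Mirc11-/-. Both type I receptor genes were among those that fell: Ifnar1 by 0.34 ± 0.05 in wild-type (adjusted p = 2.8e-05) and 0.30 ± 0.05 in Mirc11-/- (adjusted p = 0.000487), and Ifnar2 by 0.32 ± 0.06 and 0.16 ± 0.06 (adjusted p = 0.000131 and 0.0453). The Mirc11-/- call of Ifnar2 was lost in most alternative fits.

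Sensors of foreign RNA and DNA and other interferon-induced effectors rose with the IFIT and OAS genes. All 12 sensors rose in wild-type and 10 in Mirc11-/-, led by Zbp1, a sensor of Z-form nucleic acid, at 2.94 ± 0.08 and 1.55 ± 0.08 (log2, adjusted p = 3.94e-13 and 1.41e-09), and 11 of 12 had a smaller response in Mirc11-/-. Of 31 tested effectors, 30 rose in wild-type and 27 in Mirc11-/-, with medians of 2.46 and 1.17 against 4.22 and 2.89 for the IFIT and OAS genes. Beside these counts, 32.4% of all tested genes rose in wild-type, 15.6% rose in Mirc11-/- and 18.5% had a lower response in Mirc11-/-. Sp100 was the only effector not called in either genotype. Without challenge, 4 of the 31 effectors were higher in Mirc11-/- and 4 were lower, with a median of -0.068, and 6.64% of all tested genes were higher. Whether this differs from the IFIT and OAS genes, of which 0 of 10 were called higher, was not tested. The higher ones were Isg15 (log2 0.96 ± 0.11, adjusted p = 3.23e-05), Rsad2 (1.57 ± 0.10, adjusted p = 5.87e-08), Isg20 (1.46 ± 0.09, adjusted p = 3.97e-08) and Ifitm3 (0.55 ± 0.12, adjusted p = 0.00758). The lower ones were Ddx60, Igtp, Slfn5 and Ifi27l2a, at log2 -0.60, -0.40, -0.36 and -0.69 (adjusted p = 0.0013, 0.00544, 0.00787 and 0.0303), and the call of Ifi27l2a was lost in several alternative fits. All 8 were named after their values were seen.

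**Figure D4:**
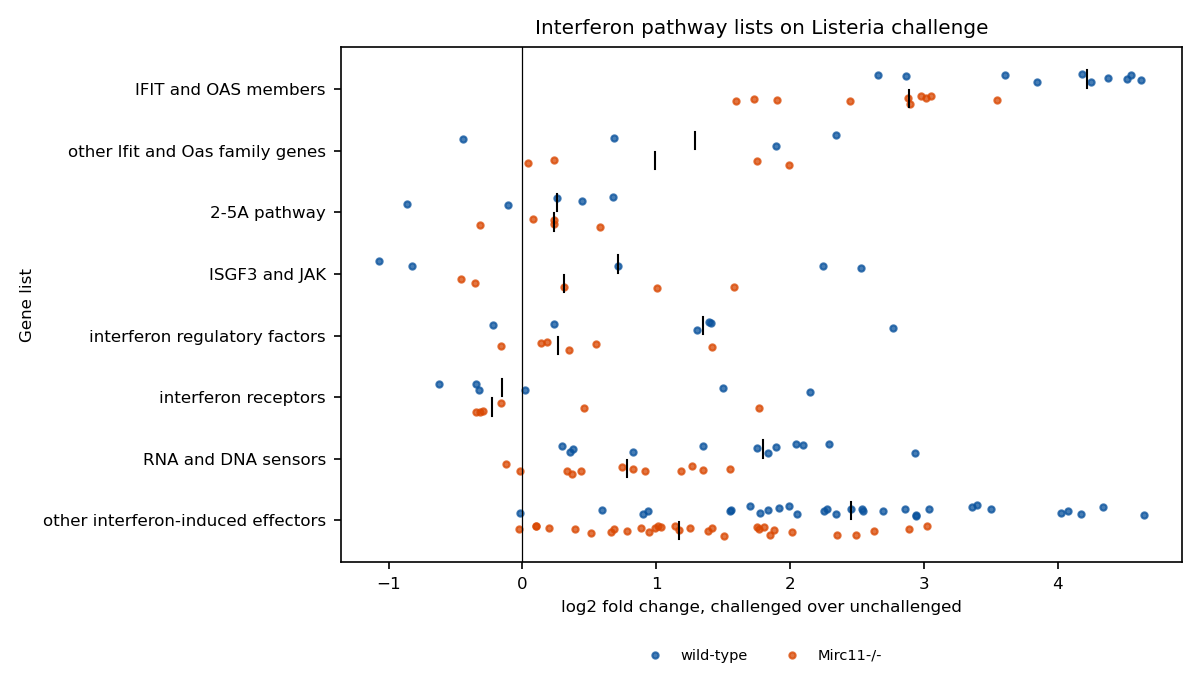
Log2 fold change on challenge for the genes of 8 lists, each point a gene and each black tick the list's median, in wild-type (blue) and in Mirc11-/- (orange). The IFIT and OAS genes lie at medians of 4.22 and 2.89, the effectors at 2.46 and 1.17, and the receptors on both sides of 0.

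The genes whose pattern over the 12 libraries was most like the median of the 10 were ranked by the root mean square difference of log2 levels. Gbp2, a guanylate-binding protein gene, was closest at 0.127 log2 units, then Serpina3f at 0.163, Usp18 at 0.228, Trim30c at 0.238, Ifi44 at 0.244, Gm4841 at 0.252, Gpnmb at 0.273 and Ly6a at 0.274. The 10 genes themselves ranged from 0.0855 for Ifit1 to 0.711 for Oas1a, so several genes outside the families lay nearer to the common pattern than some within them. Gbp2 went from 43.7 ± 1.8 to 686 ± 38 CPM in wild-type and from 37.7 ± 0.50 to 234 ± 31 CPM in Mirc11-/-.

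Markers of other cell types moved with the same groups. Cells were purified by removing others, and in bulk RNA a change in the share of cells cannot be told apart from a change in RNA per cell. NK markers (10 of 10 tested, led by Gzma and Klrk1) summed to 7111 to 8173 CPM in unchallenged wild-type, 4020 to 4088 in challenged wild-type, 7468 to 7750 in unchallenged Mirc11-/- and 5351 to 6043 in challenged Mirc11-/-. Of the 10 NK markers, 8 fell and 1 rose in wild-type, and 9 fell and 0 rose in Mirc11-/-. Over 16694 tested genes, 5166 fell in wild-type and 1915 in Mirc11-/-. Between the challenged groups 7 NK markers were higher in Mirc11-/- and 1 was lower, with 3792 tested genes higher. The NK sums were lowest where the IFIT and OAS sums were highest. Neutrophil markers, 8 of 8 tested with S100a9 and S100a8 the highest, summed in the same order to 82.3 to 87.7, 1582 to 1854, 391 to 403 and 750.3 to 1152 CPM. All 8 rose in wild-type, 7 rose and 1 fell in Mirc11-/-, and 7 were higher in unchallenged Mirc11-/-, where the IFIT and OAS genes were not. The shares over all tested genes were 32.4% rising in wild-type, 15.6% rising in Mirc11-/- and 6.64% higher in unchallenged Mirc11-/-. Monocyte and macrophage markers summed to 1039 to 1077, 1462 to 1655, 1147 to 1197 and 1158 to 1434 CPM, with 6 of 8 up and 1 down in wild-type and 4 up and 1 down in Mirc11-/-. Plasmacytoid dendritic cell markers summed to 159 to 166, 401 to 449, 209 to 214 and 241 to 288 CPM, a list that includes the interferon-induced Bst2. Of these 6 markers, 3 were up and 2 down in wild-type. In Mirc11-/- 1 was up and 2 were down, with a median log2 change of 0.0002. Their defining gene Siglech fell from 20.3 ± 2.6 to 1.34 ± 0.24 CPM in wild-type. Summed neutrophil markers were thus higher after challenge in both genotypes, as were the IFIT and OAS genes, and summed NK markers were lower, while the monocyte and macrophage sums overlapped in Mirc11-/-.

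Summed conventional dendritic cell, erythroid and T cell markers followed other courses than the IFIT and OAS genes, and B cell markers followed them in part. Conventional dendritic cell markers summed to 799 to 860, 251 to 272, 845 to 921 and 479 to 589 CPM in the same order of groups. Of these 5 markers, 3 were up and 1 down in wild-type (median log2 change 0.66). The fall of the sum there thus went against most of them. In Mirc11-/- 0 were up and 1 down (median -0.27). The difference between the responses was called lower in Mirc11-/- for 2 markers and higher for 1. Erythroid markers summed to 7563 to 8766, 1161 to 1563, 24190 to 26890 and 13360 to 16120 CPM, and 5 of 6 fell in each genotype. B cell markers summed to 1260 to 1433, 1656 to 1729, 894 to 934 and 1352 to 1452 CPM, and T cell markers to 194 to 219, 133 to 134, 133 to 148 and 204 to 232 CPM. The 6 B cell markers rose in both genotypes, but the wild-type calls of Cd79b, Ms4a1 and Pax5 were lost under upper-quartile scaling (adjusted p = 0.324, 0.17 and 0.28) and in the fit with a term for replicate number. Between the challenged groups 5 of the 6 B cell markers were lower in Mirc11-/-, as were 25.9% of tested genes. The calls of Cd79b and Pax5 in that comparison were lost under upper-quartile scaling. Unlike the 10 genes, all 6 were also lower without challenge, as were 5.07% of tested genes. None of the 6 was called with a smaller response in Mirc11-/-. The 6 T cell markers fell in wild-type and rose in Mirc11-/-. No library had a summed level of 0 for any of these lists, and Ly6g, a defining neutrophil gene, was the scarcest neutrophil marker at 0.188 ± 0.13 CPM in unchallenged and 6.19 ± 1.5 CPM in challenged wild-type. The part of any of these cells in the levels of the 10 genes was not tested.

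**Figure D5:**
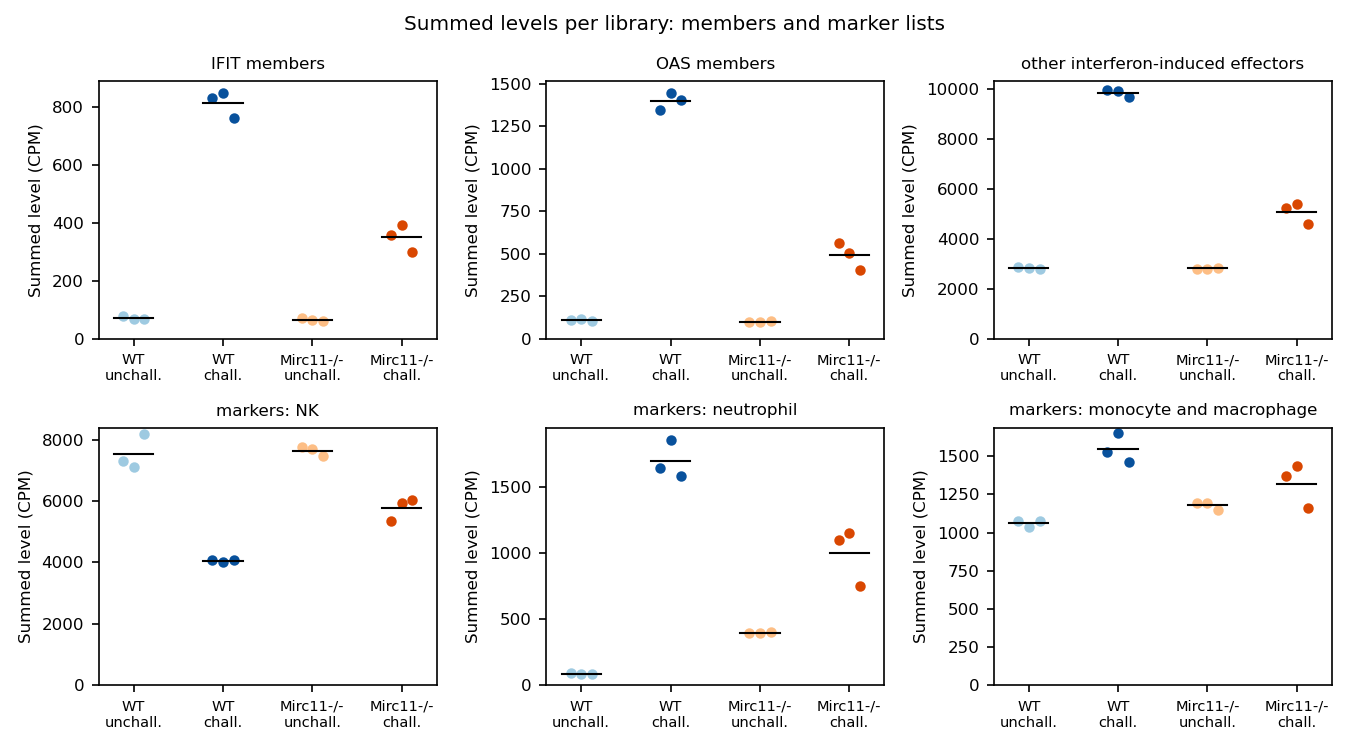
Summed level (CPM, axes from 0) per library for the IFIT genes, the OAS genes, the other interferon-induced effectors and 3 marker lists, with group means as lines. IFIT and OAS sums are highest in challenged wild-type and intermediate in challenged Mirc11-/-, and neutrophil markers have the same order there but are already raised in unchallenged Mirc11-/-.

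Upper-quartile scaling moved the median of all tested genes in the wild-type challenge to -0.116, from -0.0085. In the Mirc11-/- challenge it changed the split of called genes from 2596 higher and 1915 lower to 2263 higher and 2583 lower, and between the challenged genotypes from 3792 higher and 4332 lower to 4606 higher and 3520 lower. Ifit1 shifted in wild-type by about as much as the table's median, from 4.19 to 4.08 on the log2 scale. None of the 10 genes changed direction or call under this scaling.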

How the data were processed

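RNA of 12 NK cell libraries was analysed from 1 table of counts. The submitters' processing notes name RSEM 1.3.0, Bowtie2 2.2.8, Trim Galore 0.4.1 and bcl2fastq, and the build GRCm38. Per the labels, library preparation used Illumina TruSeq RNA. The values deposited by the authors are whole-number counts per gene and library without normalization. RSEM gives estimated counts, and the sources used here do not give how they were rounded, which annotation was used, or whether strand was. Because RSEM shares reads between similar copies, values of Ifit3 with Ifit3b and of Oas1a with Oas1g are uncertain.

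Groups came from the labels. Unchallenged titles carry 2 replicate numbers, and that of the library code was used. Low counts were filtered with filterByExpr, library sizes scaled by TMM, and all 12 libraries fitted with 1 term per group by the robust quasi-likelihood test of edgeR 4.0.16 (R 4.3.3), with Benjamini-Hochberg adjustment over 16694 genes in each of 5 contrasts and a threshold of 0.05. Standard errors come from the log2 change and the F statistic. The fit was tested on simulated data with 200 changed genes. CPM uses column totals. Alternatives were DESeq2 1.42.0, upper-quartile scaling, no count filter, only the groups compared, the replicate block, summed copies, each library left out, and, chosen after seeing the data, 2 libraries left out together.

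The 10 genes and all lists were chosen with earlier results of these data known. The rule for named genes took all 10, any gene of the family, pathway, receptor, ligand and sensor lists, the 4 most abundant genes of the effector list and of each marker list, and the 8 genes nearest the median pattern (at least 5 CPM in the highest group, prior count 2). The labels do not say that replicate numbers pair libraries, and the main fit did not pair them. Deviations of same-numbered libraries correlated at 0.12, -0.049 and 0.0059 between the unchallenged genotypes and at -0.317, 0.0576 and -0.148 between the challenged ones. Replicate 2 of unchallenged and challenged Mirc11-/- gave 0.249, and differently numbered libraries reached 0.319. With 3 libraries a group these values cannot exclude pairing. Libraries of a group differed by 3.38 to 26.9 times counting noise, so none was merely another library sequenced again. Whether they came from separate animals cannot be read from these values. Motifs, 3′ UTR sites and shared stretches of 50 bases were found with Python 3.11.15 in RefSeq (GRCm38.p6) and GENCODE vM21 sequences, and figures drawn with matplotlib 3.10.9. Results for 2 listed genes are not reported here.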

Additional observations from a re-analysis of the deposited data

Results flagged for a closer look

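Each of the 10 IFIT and OAS genes was singled out because the test of the difference itself, the interaction term of the edgeR fit, found its challenge response smaller in Mirc11-/- than in wild-type. The difference in log2 change was -1.70 for Oas3, -1.57 for Oasl2, -1.48 for Oas1g, -1.47 for Oas2 and -1.39 for Oasl1. It was -1.305 for Ifit1, -1.23 for Ifit3, -1.13 for Ifit2, -1.08 for Ifit3b and -1.06 for Oas1a. The background share, 18.5% of tested genes with a lower response, stands beside these. In each gene all 3 challenged Mirc11-/- libraries lay below all 3 challenged wild-type libraries, as in 22.3% of all tested genes.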

How the results depend on the processing

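Over 19 alternatives, 930 values of single genes were recomputed: 927 kept their side of the threshold, 3 became called and none lost its call. The 3 are Oas1a between the unchallenged genotypes, as given in the report. There, 2 genes in place of 1 were called in the fit on only the groups compared, and leaving out each library in turn gave 1 to 2. The values of Ifit2 and Oas1g in that comparison, not called, crossed 0 (-0.17 to 0.005 and -0.26 to 0.0081). Leaving out each library gave 10 of 10 in the other comparisons. With the replicate block 10, 10, 1, 10 and 10 genes were called in the 5 contrasts, none of their calls changed, and of all tested genes 3078 in place of 4511 were called in the Mirc11-/- challenge. With summed copies 8, 8, 1, 8 and 8 of 8 were called. Depth limits Oas1g and Ifit3b most, at 1.31 to 3.17 CPM without challenge.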
